A study of Mus musculus with 4 samples.

Results

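The antigen receptor loci of the mouse are the immunoglobulin heavy chain locus (Igh), the immunoglobulin kappa light chain locus (Igk), the T cell receptor alpha and delta locus (Tcra/Tcrd) and the T cell receptor beta locus (Tcrb). CTCF occupancy within them was read from 4 lists of CUT&RUN peaks, an assay in which an antibody directs a nuclease to a DNA-bound protein and the released fragments are sequenced. Summits were taken from chromosome 12 between 113200000 and 116000000 (Igh), chromosome 6 between 67500000 and 70800000 (Igk), chromosome 14 between 52400000 and 54300000 (Tcra/Tcrd) and chromosome 6 between 40850000 and 41600000 (Tcrb), all in the mm10 build. Summits of the 4 lists no more than 100 bp from the next were pooled as 1 position. This gave 531 positions of 138181 in all, 189 at Igh, 132 at Igk, 174 at Tcra/Tcrd and 36 at Tcrb.

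Each of the 4 lists comes from a single library of an mESC line, that is, mouse embryonic stem cells, and each line had its own genotype. Every line carried one chromosome 11 with the HoxB deletion named Del, and opposite it a chromosome 11 with the deletion Del(i9-13) and an inserted array of CTCF sites, Ins(CBS5-10). In the Inv:Del(CBS7-10) line the array was inverted and lacked CBS7-10, in the Inv line it was inverted, in the Del(CBS8-10) line it lacked CBS8-10, and in the Ins line it was complete. None of the 4 loci lies on chromosome 11, so the edits are not in the stretches described here. The sources used here do not say whether a line is a single clone. Genotypes were not tested against each other, as none was replicated, and intervals are 95% Wilson intervals that cover counting error only. CTCF occupancy does not measure expression, so the labelled cell type was not checked against marker genes.

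The lists held 99177 peaks in the Inv:Del(CBS7-10) library, 66365 in the Inv library, 74555 in the Del(CBS8-10) library and 93969 in the Ins library, and the sources used here do not give the read depth. The value given for each peak is the −log10 of its q-value within its own list, as deposited, and such a value grows with depth. Differences in −log10 q between libraries are therefore not read as differences in occupancy. Percentiles within a list are given for some of the named positions.

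In developing lymphocytes the RAG nuclease joins a variable (V) segment to a diversity (D) or joining (J) segment, cutting at the recombination signal sequence that lies beside each segment, and the joined segments are spliced to a constant (C) gene. CTCF is a zinc-finger protein that halts cohesin as it extrudes chromatin loops, and in B and T cell progenitors CTCF sites at these loci are known to shape which V segments come near the RAG-bound D and J segments. Embryonic stem cells do not rearrange these loci, so the positions below are those of unrearranged chromosomes.

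A few positions fell inside annotated promoters, whose sequence is shown because it is the sequence under a summit at these loci that the reference tables hold. Of 36 RefSeq promoters in the 4 windows (35 genes, GRCm38.p6, from 250 bases before to 50 after the start of the gene), 6 held a position. The sequences below run 5′ to 3′ on the strand of the gene, and capitals mark the position and 10 bases on each side of it.
Gm30948, lncRNA gene among the Igh V segments, chr12:115262401-115262700, plus strand: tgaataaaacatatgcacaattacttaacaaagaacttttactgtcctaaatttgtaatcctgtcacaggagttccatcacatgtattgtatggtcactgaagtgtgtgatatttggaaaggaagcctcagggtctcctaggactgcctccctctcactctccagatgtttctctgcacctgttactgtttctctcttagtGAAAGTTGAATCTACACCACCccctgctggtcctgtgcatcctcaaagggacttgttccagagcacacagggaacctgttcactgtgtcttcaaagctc
Gm40900, lncRNA gene among the Igh V segments, chr12:115703580-115703879, plus strand: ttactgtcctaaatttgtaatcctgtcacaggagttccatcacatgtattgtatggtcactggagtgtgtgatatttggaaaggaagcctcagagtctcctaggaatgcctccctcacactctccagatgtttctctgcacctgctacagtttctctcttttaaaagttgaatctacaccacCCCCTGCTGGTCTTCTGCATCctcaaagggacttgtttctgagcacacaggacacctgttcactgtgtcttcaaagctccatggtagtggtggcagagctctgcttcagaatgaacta
Rpia, at the constant end of Igk, chr6:70792126-70792425, minus strand: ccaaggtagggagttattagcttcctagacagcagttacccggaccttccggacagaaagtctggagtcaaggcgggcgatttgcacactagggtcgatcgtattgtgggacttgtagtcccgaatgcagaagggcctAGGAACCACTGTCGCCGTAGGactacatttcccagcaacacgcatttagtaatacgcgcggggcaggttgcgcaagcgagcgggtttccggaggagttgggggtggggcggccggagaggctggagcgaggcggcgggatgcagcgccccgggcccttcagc
Dad1, at the constant end of Tcra/Tcrd, chr14:54253880-54254179, minus strand: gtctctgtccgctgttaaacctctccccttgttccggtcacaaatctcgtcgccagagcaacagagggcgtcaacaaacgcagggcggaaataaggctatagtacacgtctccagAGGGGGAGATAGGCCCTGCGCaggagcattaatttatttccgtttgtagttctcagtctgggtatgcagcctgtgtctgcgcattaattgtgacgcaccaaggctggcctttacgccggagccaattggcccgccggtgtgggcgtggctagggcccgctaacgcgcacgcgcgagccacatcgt

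At Gm30948 the position was 115262612, at base 212 of the sequence, and it was found in all 4 libraries, with −log10 q of 31.5 in the Inv:Del(CBS7-10) library, 16.0 in the Inv library, 15.0 in the Del(CBS8-10) library and 28.8 in the Ins library. At Gm40900 the position 115703772, at base 193, was found in the Ins library alone, with −log10 q of 6.48. The longest run of bases that these promoters share is 62, and it lies away from both positions. A shorter run of identical bases, from aaagttgaatc to ctgctggtc, takes in the position of both promoters. Dad1 and Abhd4 start from opposite strands of the same stretch and share its position, and the remaining promoter with a position was that of another Abhd4 transcript.

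Tcra/Tcrd was the densest of the 4 loci, followed by Igh, while the order of Tcrb and Igk depended on the cut applied to the peaks. Positions per Mb numbered 67.5 at Igh, 40.0 at Igk, 91.6 at Tcra/Tcrd and 48.0 at Tcrb, against 52.3 over the autosomes other than chromosome 11. The 2258 tiles of 1 Mb on those autosomes had a median of 43 positions and quartiles of 20 and 75. The share of tiles below the locus in positions per Mb was 83.5% for Tcra/Tcrd, 69.8% for Igh, 55.5% for Tcrb and 46.8% for Igk. Tied tiles were counted in equal parts as below and above. Positions found in all 4 libraries numbered 29.3 per Mb at Igh, 13.0 at Igk, 48.4 at Tcra/Tcrd and 17.3 at Tcrb, against 17.2 over the autosomes. The order of the loci was the same on both measures. With peaks of −log10 q from 10 upwards, however, Tcrb had 24.0 per Mb and Igk 25.2. With the 20000 strongest peaks of each list Tcrb was again the denser, at 12.0 per Mb against 7.58 at Igk. With all peaks the order also held within each library: the Inv:Del(CBS7-10) list had 53.6, 30.6, 78.9 and 30.7 positions per Mb at Igh, Igk, Tcra/Tcrd and Tcrb, the Inv list 38.2, 20.3, 58.4 and 24.0, the Del(CBS8-10) list 42.9, 21.2, 63.7 and 28.0, and the Ins list 49.3, 28.2, 74.7 and 29.3. In the Inv:Del(CBS7-10) and Ins lists Igk and Tcrb were close to each other.

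**Figure D1:**
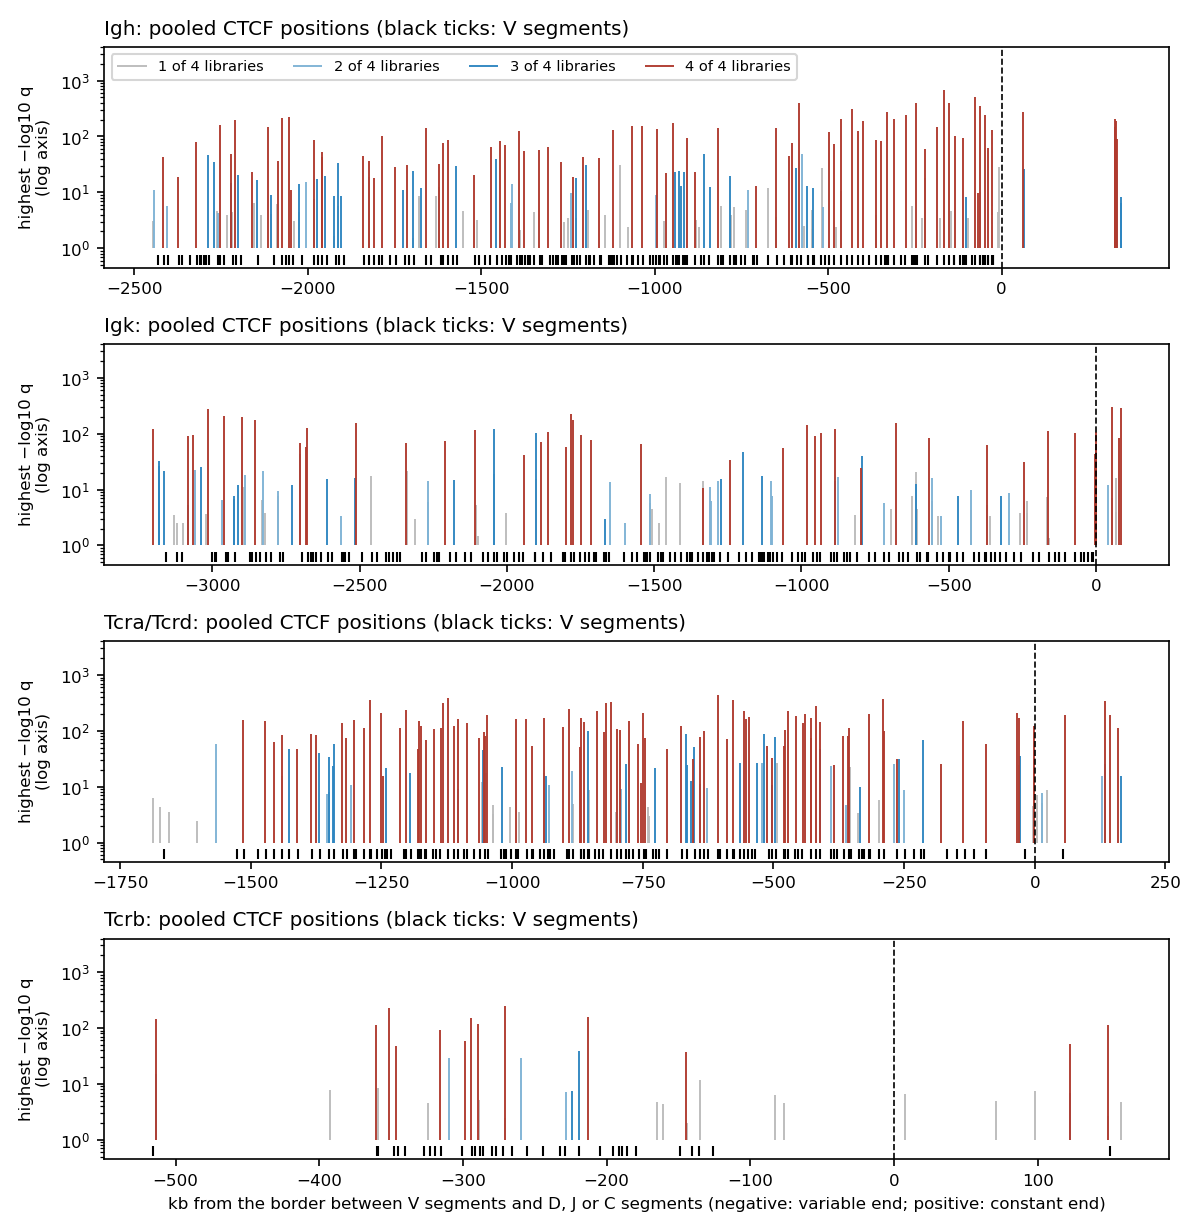
Pooled CTCF positions along each locus, with distance from the border between V segments and D, J or C segments in kb on the x axis and the highest −log10 q of the position on a log y axis. Line colour gives the number of libraries that hold the position and black ticks are V segments; at Igh the 262 kb on the constant side without a position stand out, and at Tcra/Tcrd the lines follow the V segments.

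The stretches beside the loci differed from them. The 1 Mb beyond the constant end of Igh held 109 positions and the 1 Mb beyond its variable end 33. Beyond Igk these counts were 100 at the constant end and 56 at the variable end, beyond Tcra/Tcrd 140 and 105, and beyond Tcrb 40 and 41. At Igh, then, the flank at the constant end was denser than the locus itself, at Igk and Tcra/Tcrd both flanks were, and at Tcrb neither was.

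Spacing was shortest at Tcra/Tcrd and longest at Igk, while Igh, denser than Tcrb, had the wider median gap of these 2 loci. The median gap between neighbouring positions was 10.4 kb at Igh (quartiles 5.45 and 19.4), 17.8 kb at Igk (4.12 and 41.9), 6.99 kb at Tcra/Tcrd (3.46 and 15.0) and 8.33 kb at Tcrb (4.07 and 25.2), against 7.86 kb (2.15 and 19.3) over the autosomes. Gaps wider than 50 kb made up 2.13% of gaps at Igh, 15.3% at Igk, 2.31% at Tcra/Tcrd and 11.4% at Tcrb, against 8.72% over the autosomes. Gaps under 1 kb made up 14.9%, 12.2%, 16.2% and 17.1% in the same order, against 18.5%. Igk had 20 of these wide gaps and each of the other loci 4, which at Tcrb is a larger share because it has 35 gaps in all. Where a position was found in all 4 libraries, its outermost summits lay a median of 18, 17, 13 and 19 bp apart at the 4 loci, against 18 bp over the autosomes.

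At Igh the widest gap took in the constant genes. Between 113222936 and 113485272, a stretch of 262 kb, no library had a summit, and this stretch held all 8 annotated C genes (Ighm, Ighd, Ighg3, Ighg1, Ighg2b, Ighg2c, Ighe and Igha), 4 J segments and 18 of the D segments. Of 119341 autosomal gaps, 510 (0.427%) were as wide. The nearest position to Ighm, the gene of the IgM heavy chain, lay 62.5 kb away, and that to Ighg3 124 kb away. Igha, the gene of the IgA heavy chain and the closest of the 8, lay 33.3 kb from the nearest position.

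Both sides of that gap carried CTCF positions with a high −log10 q, but their fold over the local background differed. Beyond Igha, 6 positions found in all libraries lay within 4.83 kb, at 113218104, 113220070, 113220694, 113222233, 113222468 and 113222936. The far end of Igh is known for a group of CTCF sites beyond the 3′ regulatory region, the 3′ CBEs. No other run of at least 3 positions shared by all libraries with gaps under 3 kb was present in the 4 windows. At 113222233 the −log10 q was 207 in the Inv:Del(CBS7-10) library, 53.8 in the Inv library, 46.4 in the Del(CBS8-10) library and 112 in the Ins library, with percentiles within the list of 92.9, 92.8, 90.6 and 94.3. At 113220694 the −log10 q was 188, 71.3, 78.2 and 125 in the same order. The weakest of the group, 113220070, had 24.8, 9.73, 21.5 and 46.7. The fold over the local background was low in this group, at 7.42, 8.43, 6.46 and 6.84 for 113222233. For 113220070 it was 2.66, 3.45, 4.31 and 4.22. The median fold of Igh positions found in all libraries was 19.9, 10.8, 11.5 and 16.7, and all 6 positions lay below it in each library.

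On the V side of the gap, 113485272 and 113487917 lay between Ighd1-1 and Adam6b, 3.08 kb and 5.72 kb from Ighd1-1. This interval holds the intergenic control region IGCR1, a pair of CTCF sites known to keep V segments apart from the D segments in B cell progenitors. The position 113487917 had a −log10 q of 275 in the Inv:Del(CBS7-10) library, 55.6 in the Inv library, 65.2 in the Del(CBS8-10) library and 120 in the Ins library. All 4 percentiles within the list were high, at 97.3, 93.4, 96.8 and 95.4. Its fold over the local background was 22.7, 19.4, 18.0 and 19.5 in the same order. The position 113485272 was weak, with 26.1 in the Inv:Del(CBS7-10) library, no summit in the Inv library, 7.06 in the Del(CBS8-10) library and 10.99 in the Ins library. Between Ighd5-1 and Ighv5-1, the V segment nearest to the D segments, 2 positions were found, both in the Inv:Del(CBS7-10) library alone.

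Comparing the ends of the loci, the variable side was denser than the constant side at Igh and sparser at Igk. The border was set midway between the V segment nearest to the constant genes and the nearest D or J segment, and V segments that lie beyond the constant genes were left on the constant side. At Igh the variable side had 176 positions in 2.45 Mb (71.8 per Mb) and the constant side 13 in 350 kb (37.2 per Mb), a ratio of 1.93 (95% interval 1.10 to 3.70, exact, for counting error only). At Igk the variable side had 124 (38.6 per Mb) and the constant side 8 in 86.6 kb (92.3 per Mb), a ratio of 0.418 (0.206 to 0.989). At Tcra/Tcrd the counts were 160 (94.4 per Mb) and 14 (68.1 per Mb), and at Tcrb 28 (50.2 per Mb) and 8 (41.6 per Mb). The ratios of 1.39 (0.802 to 2.59) at Tcra/Tcrd and 1.21 (0.536 to 3.07) at Tcrb had intervals that take in 1. These ratios depend on the border: with the middle of the window in its place the ratio was 1.08 at Igh and 0.970 at Igk. The Igk border, 70713369, falls between 70713320 and 70714425, which both lie between Igkv3-1 and Igkj1. The constant sides also include stretches beyond the constant genes. At Igh 6 positions lay within 4.83 kb beyond Igha, and at Igk 70768946, 70792277 and 70798024 lay within or beyond Rpia. The intervals treat such neighbouring positions as independent.

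**Figure D2:**
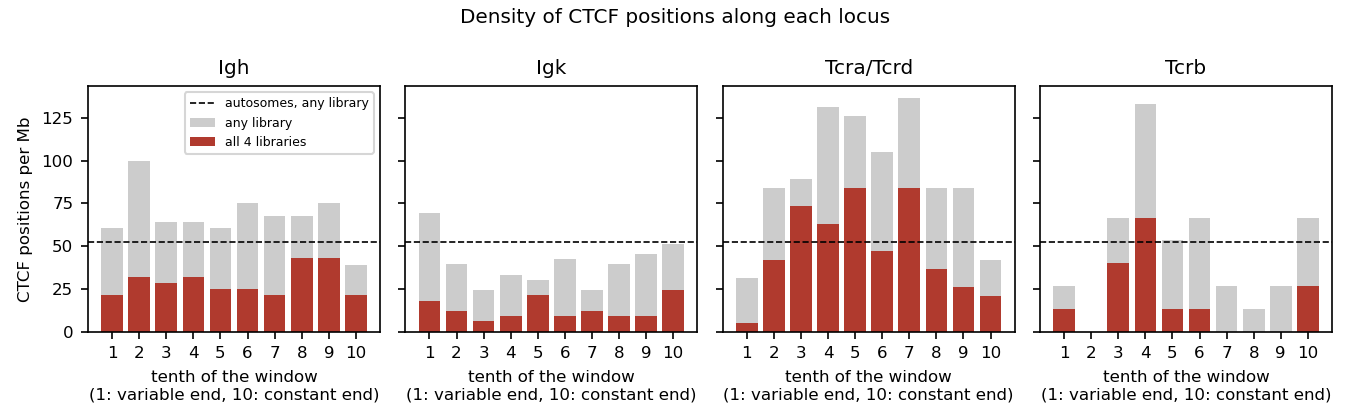
CTCF positions per Mb in 10 equal stretches of each window, with stretch 1 at the variable end and stretch 10 at the constant end. Grey bars count positions of any library, red bars those found in all 4 libraries, and the dashed line is the autosomal density of 52.3 per Mb; Tcra/Tcrd is densest in the middle of its V segments and Tcrb has an empty second stretch.

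Along the loci the density was uneven in different ways. At Tcra/Tcrd the 10 equal stretches held 6, 16, 17, 25, 24, 20, 26, 16, 16 and 8 positions from the variable to the constant end. At Igh they held 17, 28, 18, 18, 17, 21, 19, 19, 21 and 11. Those found in all libraries were most frequent at Igh in the 8th and 9th stretch, with 12 in each against 6 to 9 in the others, which are the V segments closest to the D segments. At Igk the first and the last stretch held the most, with 23 and 17 positions. At Tcrb the fourth stretch held 10 positions and 13 V segments, and the second held none.

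At Igh most V segments with a position within 1 kb had it close to the 3′ end, the end that carries the recombination signal. The reference table gives no strand, and Igh V segments were read as pointing to the constant genes, as is known for this locus. Of 182 V segments, 44 (24.2%) had a position within 1 kb of their 3′ end. For 39 of these it lay within 200 bp, at a median of 78 bp beyond the end. Within 1 kb of the 5′ end 55 segments (30.2%) had a position, and within 1 kb of either end 56, so these counts overlap. Of all Igh positions 34.9% lay within 1 kb of a V segment, and 14.9% of the window lies that close to one. The Igh positions near a V segment had a median highest −log10 q of 74.7, and the others 14.2.

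This placement differed between V families. Of the Ighv2 family (the Q52 family, in the part of the locus nearest to the D segments), 9 of 11 members had a position within 200 bp of the 3′ end, between 53 and 98 bp beyond it. Of the Ighv5 family (interleaved with Ighv2), 8 of 21 did, between 58 and 79 bp beyond it. The split by pseudogene was chosen after the values were seen: in these families all 9 Ighv2 genes and 8 of 10 Ighv5 genes had such a position, and none of their 2 and 11 pseudogenes did. Over the whole locus 32 of 119 V genes and 7 of 63 V pseudogenes had one, so pseudogenes of other families did carry it. Of the Ighv6 family 4 of 7 members had one, of Ighv3 3 of 8 and of Ighv8 1 of 16. Of Ighv1, the J558 family and the largest with 90 members, none did. In that family 14 members had a position within 1 kb of the 5′ end, at a median of −766 bp from it, where a negative value is before the segment.

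The strongest positions of Igh were among these. The highest of all 4 loci was 113716582, 90 bp beyond the 3′ end of Ighv2-6. Its −log10 q was 693 in the Inv:Del(CBS7-10) library, 166 in the Inv library, 158 in the Del(CBS8-10) library and 291 in the Ins library, at percentiles of 99.9, 99.9, 99.8 and 99.8. The next were 113625430 beside Ighv5-6, with 510, 114, 102.4 and 218, and 113796046 beside Ighv2-6-8, with 397, 140, 106 and 192. The fourth was 113702052, which lay 74 bp beyond the end of Ighv5-12, with 401, 101.5, 89.4 and 216. The fifth, 114135075, lay farther from a V segment, 7.09 kb from Ighv12-2 and 5.62 kb from Ighv9-3, with 396, 83.9, 124 and 163. Not all members of these families had a strong position. The one beside Ighv2-4, at 113653197, chosen after its values were seen, had no summit in the Del(CBS8-10) library and percentiles of 24.8 (Inv:Del(CBS7-10)), 4.5 (Inv) and 19.1 (Ins).

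**Figure D3:**
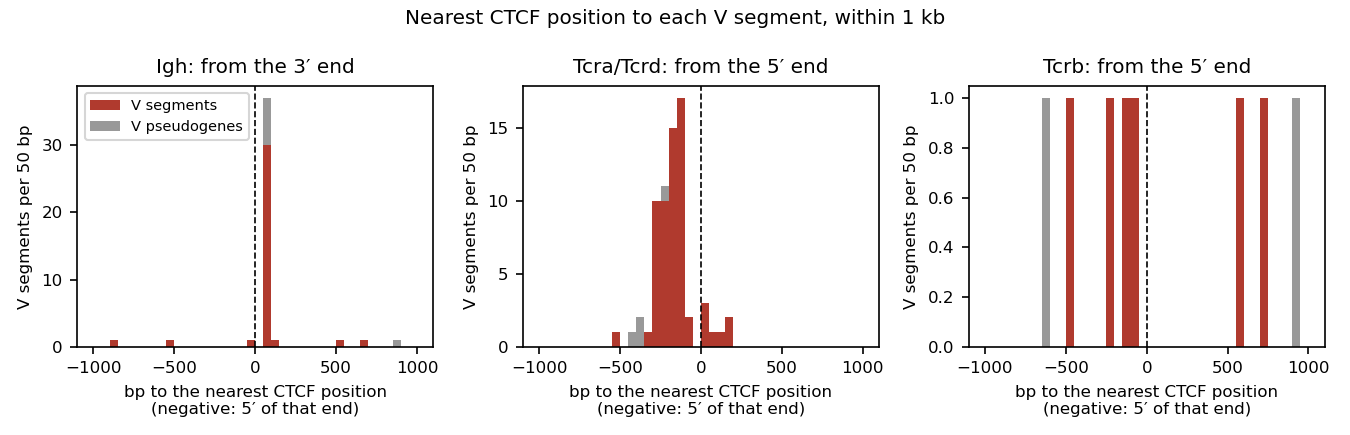
Distance in bp from the 3′ end of each Igh V segment, and from the 5′ end of each Tcra/Tcrd and Tcrb V segment, to the nearest CTCF position, for distances up to 1 kb, as counts of V segments per 50 bp (red, V segments; grey, V pseudogenes). At Igh most lie just beyond the 3′ end, with a median of 78 bp for those within 200 bp, and at Tcra/Tcrd most lie before the 5′ end, with a median of 165 bp.

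At Tcra/Tcrd the positions lay at the opposite end of the V segment. Segments were read as pointing to the constant genes, except Trdv5, which is inverted. Of 136 V segments, 67 (49.3%) had a position within 1 kb of the 5′ end, 65 had one within 1 kb of the 3′ end, and none had one within 200 bp of the 3′ end. The signed distance from the 5′ end had a median of −165 bp (quartiles −230 and −120). Transcription of a V segment starts on that side. Of the positions of this locus 46.6% lay within 1 kb of a V segment, and 17.8% of the window does. Those near a V segment had a median highest −log10 q of 77.3, and the others 25.6.

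The families again differed. All 11 Trav9 members had a position within 1 kb of the 5′ end, at a median of −280 bp. Of Trav12 9 of 10 did (median −156 bp), of Trav6 12 of 15 (−116 bp), of Trav5 6 of 9 (−306 bp), of Trav7 9 of 14 (−162 bp), of Trav3 5 of 8 (−148 bp), of Trav8 3 of 5 (−209 bp) and of Trav4 4 of 9 (−146 bp). None of 13 Trav13, 9 Trav14 and 9 Trav15 members did. The mouse Trav cluster holds repeated stretches, whose copies are named with d and n. Of 40 groups of 2 or 3 such copies with 112 segments, 19 had a position within 1 kb of the 5′ end at every copy, 18 at none and 3 at some. The copies are alike in sequence, and the sources used here do not say how reads that match several copies were placed, so the copies are not independent of each other.

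Of the 5 strongest positions of Tcra/Tcrd, 4 lay before a segment of such a copy group. The position 52972385 lay 147 bp before Trav3d-3, with −log10 q of 381 in the Inv:Del(CBS7-10) library, 96.9 in the Inv library, 78.3 in the Del(CBS8-10) library and 164 in the Ins library. The position 53283521 before Trav3n-3, its copy, had 332, 94.4, 67.5 and 152. The position 53516817 before Trav6-6 had 362, 117, 66.6 and 151. Before Trav9-1, 53487809 had 431, 114, 69.0 and 123. The remaining one, 53804402, lay 2.24 kb before Trav17, which is in no copy group, and had 377, 93.6, 86.1 and 139.

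At Igk the V segments had almost no position near them. Of 162 V segments, 3 (1.85%) had one within 1 kb of either end, namely Igkv8-19, Igkv8-18 and Igkv3-11. Either end was used because Igk V segments point both ways and the table gives no strand. Igk positions near a V segment made up 2.27% of the positions of the locus, and 12.3% of the window lies that close to one. The median distance from a V segment to the nearest position was 10.3 kb at Igk, against 3.20 kb at Igh, 0.838 kb at Tcra/Tcrd and 2.75 kb at Tcrb. In Igkv4, the largest kappa family with 33 members, no member had a position within 1 kb.

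The strongest Igk positions lay between V segments and beyond Igkc. The highest was 70768946 within the span of Rpia, the ribose-5-phosphate isomerase gene beyond the constant end, with −log10 q of 303 in the Inv:Del(CBS7-10) library, 60.6 in the Inv library, 72.8 in the Del(CBS8-10) library and 175 in the Ins library. At the variable end, 67699183, 12.0 kb from Igkv14-134-1, had 278, 114, 58.8 and 100.4. The position 67812661 had 202, 31.6, 59.4 and 111 in the same order of libraries, and 67858169 had 178, 40.4, 47.2 and 84.0. The position 68932030, between Igkv13-85 and Igkv13-84, had 221, 51.4, 32.3 and 85.4. The widest gap of the locus, 120 kb between 68250574 and 68370223, held 7 V segments, and 2.36% of autosomal gaps were at least as wide.

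Between the last kappa V segment, Igkv3-1, and the first J segment, Igkj1, a stretch of 18.4 kb held 4 positions, of which 3 were found in every library. This interval is known for the CTCF-bound elements Cer and Sis. The position 70709469 had −log10 q of 43.6 in the Inv:Del(CBS7-10) library, 8.65 in the Inv library, 7.14 in the Del(CBS8-10) library and 7.75 in the Ins library, so it lay under 10 in 3 of the lists. The position 70713320 had 63.4, 8.68, 22.7 and 57.2, and 70714425 had 109, 25.02, 48.9 and 97.8. Igkc, the kappa constant gene, had no position within 10 kb, and the nearest was 70714425 at 12.0 kb. The position 70798024, 5.85 kb beyond Rpia, had 292, 42.8, 31.4 and 84.9, and 70792277 at the Rpia promoter had 83.3, 33.4, 33.5 and 52.3.

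At the constant end of Tcra/Tcrd, 4 positions were found in every library, and none lay among the J segments. Between 54153008, which lies 2.00 kb before Traj61, and 54222482 within Trac, a stretch of 69.5 kb held the 60 annotated Traj segments, Traj61 included, and no summit. Gaps this wide are not rare, as 5.71% of autosomal gaps were at least as wide. The start of the J alpha cluster is where the T early alpha promoter lies. The position 54153008 had −log10 q of 189 in the Inv:Del(CBS7-10) library, 12.5 in the Inv library, 28.5 in the Del(CBS8-10) library and 76.4 in the Ins library. Its percentile within the list was lowest in the Inv library. Trdc, the delta constant gene, lay 6.90 kb from it.

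Trac, the alpha constant gene, held a weak position of 2 libraries at 54222482, with −log10 q of 15.4 in the Inv:Del(CBS7-10) library and 5.41 in the Ins library. The position 54228110 lay 3.91 kb beyond Trac, on the side of the alpha enhancer, with 339 in the Inv:Del(CBS7-10) library, 79.2 in the Inv library, 46.9 in the Del(CBS8-10) library and 90.6 in the Ins library. The position 54239240 lay within the span of Dad1, a gene of the oligosaccharyltransferase that is used in most cells, with 192, 32.8, 74.2 and 160. The position 54254054, in the promoter shared by Dad1 and Abhd4 and shown above, had 114, 18.2, 15.9 and 25.6. Between Trdv4 and Trdd1, 10 positions were found, and 1 of them, 54092651, in all libraries, with 121, 15.1, 23.1 and 26.9.

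Tcrb had the fewest positions. Of its 36 positions, 9 lay within 1 kb of a V segment, and 11.2% of the window lies that close to one. This difference was not tested. Of 35 V segments, 8 (22.9%) had a position within 1 kb of the 5′ end, with 3 of them up to 400 bp before it, and 8 had one within 1 kb of the 3′ end. The signed distances were scattered between −616 and 913 bp from the 5′ end. The position 41055780 between Trbv3 and Trbv4 had −log10 q of 225 in the Inv:Del(CBS7-10) library, 41.3 in the Inv library, 36.8 in the Del(CBS8-10) library and 76.3 in the Ins library. The position 41194666 between Trbv20 and Trbv21 had 160, 27.9, 55.2 and 103. Next to Trbv12-1, 41113080 had 153, 40.5, 32.9 and 69.8, and next to Trbv12-2, 41118380 had 119, 31.0, 35.96 and 79.4.

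The stretch of 251 kb between Trbv30 and Trbd1, which holds trypsinogen genes, had 7 positions. Of these, 41530160 alone was found in all libraries. It lay 3.04 kb before Trbd1, the first D beta segment, with −log10 q of 50.8 in the Inv:Del(CBS7-10) library, 5.30 in the Inv library, 16.4 in the Del(CBS8-10) library and 32.8 in the Ins library. Beyond Trbc2, the second constant gene, 41556572 lay 1.12 kb from Trbv31, in the interval that holds the beta enhancer, and had 113, 11.9, 34.1 and 56.8. Trbc1 and Trbc2 lay 8.06 and 8.09 kb from the nearest position. At the far variable end, 40893740 lay 1.86 kb beyond Trbv1 and had 146, 31.1, 25.2 and 78.2. The widest gap, 121 kb between 40893993 and 41015300, held no V segment, and 2.31% of autosomal gaps were at least as wide.

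**Figure D4:**
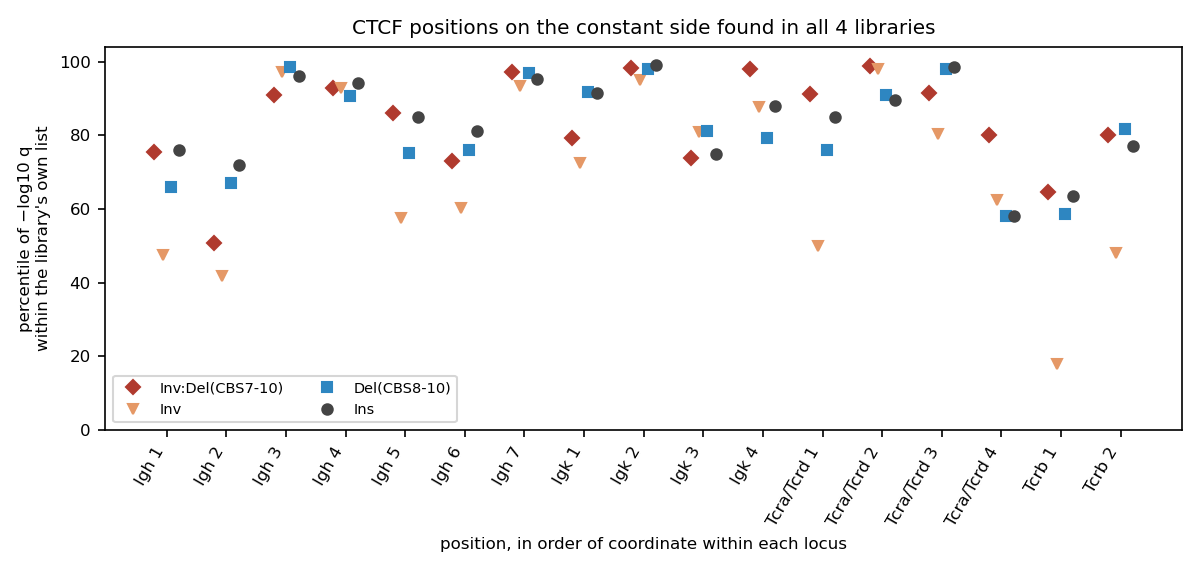
Percentile of −log10 q within each library's own list, on the y axis, for the 17 positions of the constant side found in all 4 libraries, numbered within each locus in order of coordinate; marker shape gives the library. The 4 points under 50 are all of the Inv library, at Igh 1, Igh 2, Tcrb 1 and Tcrb 2.

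Sharing over the libraries differed between loci. A position was found in all 4 libraries in 52.9% of cases at Tcra/Tcrd (92 of 174, interval 45.5 to 60.1), 43.4% at Igh (82 of 189, 36.5 to 50.5), 36.1% at Tcrb (13 of 36, 22.5 to 52.4) and 32.6% at Igk (43 of 132, 25.2 to 41.0). Over the autosomes other than chromosome 11 the share was 33.0%. The intervals of Tcra/Tcrd and Igh lie above that value and those of Tcrb and Igk take it in. Positions of a single library numbered 60 of 189 at Igh, 40 of 132 at Igk, 36 of 174 at Tcra/Tcrd and 16 of 36 at Tcrb. In all they numbered 152 of 531, against 46088 of 119359 (38.6%) over the autosomes. The share at Tcrb lay above the autosomal share and those of the other loci below it.

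Strength differed between the loci as well. The median of the highest −log10 q was 20.2 at Igh, 15.4 at Igk, 52.9 at Tcra/Tcrd and 10.2 at Tcrb, against 13.2 over the autosomes. Positions of at least 50 made up 30.7% at Igh, 29.5% at Igk, 51.7% at Tcra/Tcrd and 30.6% at Tcrb, against 26.6% over the autosomes, so Tcrb lay below the autosomes in its median and above them in this share. Of positions whose highest −log10 q lay between 20 and 50, 37.1% (33 of 89, interval 27.8 to 47.4) were found in all libraries at the 4 loci, against 42.0% over the autosomes. Between 50 and 100 the shares were 88.9% (64 of 72, 79.6 to 94.3) and 84.4%, and from 100 on 98.4% (124 of 126, 94.4 to 99.6) and 98.3%. Under 5 they were 0 of 96 (up to 3.85%) and 0.031%. In each of the 6 classes of strength the autosomal share lay inside the interval of the 4 loci pooled. Taken singly, the loci differed: between 50 and 100 the share was 100% at Igh (21 of 21, interval 84.5 to 100) and 74.2% at Tcra/Tcrd (23 of 31, 56.8 to 86.3), and from 100 on it was 90.9% at Igk (20 of 22, 72.2 to 97.5). The autosomal share lay just below the Igh interval, inside that of Tcra/Tcrd and above that of Igk, and inside the interval in all other classes of each locus.

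**Figure D5:**
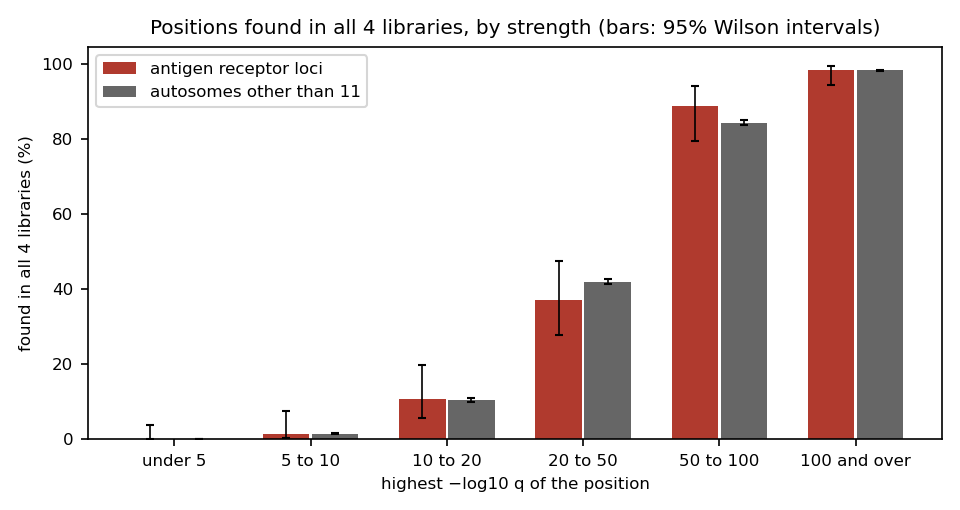
Share of positions found in all 4 libraries, in percent, by the highest −log10 q of the position, for the antigen receptor loci (red) and the autosomes other than chromosome 11 (grey), with 95% Wilson intervals. Both rise from near 0 for positions under 5 to 98.4% and 98.3% for positions of 100 and over.

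By library, 79.8% of the 531 positions were found in the Inv:Del(CBS7-10) list, 57.1% in the Inv list, 62.5% in the Del(CBS8-10) list and 74.4% in the Ins list, against 71.9%, 47.1%, 54.0% and 67.9% over the autosomes. The order of the libraries was the same in both, and it is the order of the lengths of the lists. Of 84 positions found in exactly 3 libraries, 58 lacked the Inv library, 24 the Del(CBS8-10) library, 2 the Ins library and none the Inv:Del(CBS7-10) library. Of 16230 such autosomal positions, 9856 lacked the Inv library, 5096 the Del(CBS8-10) library, 753 the Ins library and 525 the Inv:Del(CBS7-10) library, in the same order. The part of depth in these absences was not tested. Of 198 positions with a highest −log10 q of at least 50, 10 (5.05%) lacked a summit in some library, against 6.76% over the autosomes. The Inv:Del(CBS7-10) library lacked none of these, and the Igh and Tcrb loci had none. The filter takes the highest value over the 4 lists, and a library that supplies this value cannot lack the position. At shared positions of each locus the median −log10 q was highest in the Inv:Del(CBS7-10) list, at Igh 87.5 against 16.0 (Inv), 23.3 (Del(CBS8-10)) and 54.1 (Ins). That this library lacked none is therefore in part set by the filter.

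Of these 10 positions, 2 were at Igk and 8 at Tcra/Tcrd. At Igk, 68668639 had no summit in the Del(CBS8-10) library, and its −log10 q was 122 (Inv:Del(CBS7-10)), 13.2 (Inv) and 42.7 (Ins). The position 68813660 had 103 in the Inv:Del(CBS7-10) library, 6.92 in the Del(CBS8-10) library and 8.74 in the Ins library, and no summit in the Inv library. At Tcra/Tcrd, 53240590, which lay 161 bp before Trav12n-3, chosen after its values were seen, lacked a summit in the Del(CBS8-10) library and had 97.8 (Inv:Del(CBS7-10)), 28.9 (Inv) and 29.6 (Ins).

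Where all libraries had a position, its rank among the 39356 autosomal positions shared by the 4 libraries put the libraries on 1 scale. At Tcra/Tcrd the median percentile of 92 positions was 57.9 in the Inv:Del(CBS7-10) library, 71.1 in the Inv library (quartiles 40.0 and 89.2), 60.7 in the Del(CBS8-10) library and 53.4 in the Ins library. All shared positions of chromosome 14 had medians between 51.9 and 52.8. At Tcrb the medians of 13 positions were 55.8, 36.02, 52.8 and 61.8 in the same order of libraries, with quartiles of 6.96 and 69.5 in the Inv library. At Igh they were 45.0, 42.0, 49.0 and 48.4, and at Igk 48.2, 49.8, 48.5 and 47.8. The Inv library was thus the highest of the 4 at Tcra/Tcrd and Igk and the lowest at Tcrb and Igh, with quartiles that overlap those of the other libraries in every case. With a single library per genotype this cannot be told apart from differences between libraries.

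The genes of V(D)J recombination and lymphocyte identity, listed apart from the loci, mostly had a CTCF summit near them, as did most protein-coding genes. Of 34 genes, 30 lay outside chromosome 11, whose reads were divided between its 2 copies in the authors' genome. Of these, 26 had a summit within 10 kb in every library (86.7%), 4 in some and 0 in none. Of 20018 protein-coding genes, 73.4% had one in every library and 13.0% in none. This difference was not tested. Rag1, which encodes a subunit of the recombinase, had a highest −log10 q of 173 in the Inv:Del(CBS7-10) library, 25.1 in the Inv library, 37.9 in the Del(CBS8-10) library and 90.7 in the Ins library. Rag2, its partner, had 23.1, 10.3, 8.18 and 14.5. Cd3e, a subunit of the T cell receptor complex, had a summit in the Inv library alone (6.39), and Cd3d, its neighbour, in the Inv:Del(CBS7-10) library (23.8) and, with the same value as Cd3e, in the Inv library. Xrcc4, an end-joining factor, lacked one in the Inv library and Vpreb1, of the surrogate light chain, in the Del(CBS8-10) library. These are counts of peaks near genes and do not show that a gene was expressed.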

How the data were processed

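The data are CTCF CUT&RUN peak lists of 4 mESC libraries, 1 per genotype. MACS2 2.2.7.1, bedtools 2.30.0, Picard, Bowtie2 2.4.5, cutadapt 4.1 and mm10 are listed in the submitters' processing notes. The sources used here do not give their settings, the read filters or any control. The deposited lists use a modified mm10 with 2 copies of chromosome 11. For each peak the authors deposited a fold over the local background, a −log10 p-value, a −log10 q-value and a score, which is the −log10 q times 10 as a whole number. The smallest −log10 q of each list was at least 1.30, near a q of 0.05. Depth is unknown, so no interval takes it into account.

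Positions were pooled from summits, counted from 1, with SciPy 1.17.1, pandas 2.3.3 and NumPy 2.4.6 under Python 3.11.15, and drawn with Matplotlib 3.10.9. Pooling was tested on simulated data. Gene spans are those of RefSeq on GRCm38.p6, which shares its coordinates with mm10 and gives no exons or strands, so only the span of a gene is named. Named were, per locus, the 5 positions with the highest mean percentile, those of the constant side found in all libraries, those beside the widest gap, the constant genes and V families of at least 5 members. Other positions and genes were named after their values were seen. Of 34 pathway genes, 4 lie on chromosome 11 and were left out. The members and lists were chosen with earlier results of these data known. Pileups were not recovered from the lists. The values of 1 gene of the pathway list are not reported here.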

Additional observations from a re-analysis of the deposited data

How the results depend on the processing

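Of 92 alternative values, 69 stayed within 1.5 times the count or within the 95% interval of the share, ratio or median gap given above, 23 moved, and none turned a direction whose interval excluded a ratio of 1. Keeping peaks with a −log10 q from 10 upwards, positions numbered 124 at Igh, 83 at Igk and 18 at Tcrb, which made Tcrb and not Igk the sparsest locus, and the median gap was 18.0 kb at Igh and 27.9 kb at Igk. With the 20000 strongest peaks of each list they numbered 46 at Igh, 25 at Igk, 72 at Tcra/Tcrd and 9 at Tcrb, with Igk the sparsest per Mb. The numbers above thus depend on how deep the lists reach. With these strongest peaks the share found in all libraries was 41.7% at Tcra/Tcrd. Leaving out 1 library at a time, the share found in all of the others ranged from 48.6% to 58.3% at Igh, 35.5% to 44.4% at Igk, 56.1% to 66.3% at Tcra/Tcrd and 40.6% to 45.5% at Tcrb. It was highest without the Inv library, which has the shortest list, at each of the 4 loci. Each of these shares lay above its value with all libraries. Fewer libraries are asked for here, so a rise is largely set in advance. The variable to constant ratio was 1.08 at Igh and 0.970 at Igk with the middle of the window as border, and 2.67 at Tcra/Tcrd for positions found in all libraries. V segments with a position near the 3′ end numbered 6 at Tcra/Tcrd and 3 at Tcrb within 500 bp, 15 at Tcrb within 2000 bp, and 5 at Tcrb with −log10 q from 10 upwards. At Igk, counting either end, they numbered 0 within 500 bp, 16 within 2000 bp and 1 with −log10 q from 10 upwards. The cause of these moves was not tested. Pooling within 50 or 250 bp and merging overlapping intervals moved none of the counts of positions past 1.5 times. The median gaps were recomputed under settings chosen after seeing the data. No paired analysis was possible because each genotype has 1 library and no result comes from a test.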

Other observations

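The antigen receptor loci outside the 4 windows were sparser than Tcra/Tcrd as well. The lambda light chain locus Igl on chromosome 16, taken from 18961752 to 19360844, had 15 positions (37.6 per Mb), of which 6 were found in all 4 libraries. The T cell receptor gamma locus Tcrg on chromosome 13, from 19078042 to 19452343, had 23 positions (61.4 per Mb), of which 9 were found in all libraries. The median gap was 13.5 kb at Igl and 10.2 kb at Tcrg. Both windows include 100 kb to each side of the annotated segments, so their densities are in part those of the flanks.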
